A study of Mus musculus with 4 samples.

Results

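The sham heart was set against the control heart in macrophages, fibroblasts and endothelial cells, the 3 main classes of cells recovered. Each group was a single droplet library of heart cells from mice, labelled as holding all cells of the heart: 1 control library and 1 sham library. A library after cecal ligation and puncture (CLP, an operation that causes abdominal sepsis) and a library of sepsis with low-level tragus stimulation (an electrical stimulus at the outer ear) supplied values for reference only. The sources used here do not give what the sham procedure consisted of, the strain, sex and age of the mice, the time of sampling or the number of animals behind each library. The series title asks whether tragus stimulation acts on the septic heart through M2 macrophages. The step from control to sham sets side by side the hearts whose labels name neither sepsis nor stimulation.

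The members of each class were chosen by the measured level of a few genes. A macrophage had at least 20 UMIs (unique molecular identifiers, 1 per captured RNA molecule) of C1qa, C1qb and C1qc per 10000 UMIs and fewer than 20 of Col1a2, Dcn and Col3a1. A fibroblast had at least 50 of those matrix genes per 10000 and no UMI of Cdh5 or Ptprc. An endothelial cell had at least 2 UMIs of Cdh5 and Pecam1 together and fewer than 20 of the matrix genes per 10000. The rule took 18870 of the 24566 kept cells of the control and sham libraries, out of 41542 kept cells in the series. These were 5108 control and 3679 sham macrophages, 3341 and 1645 fibroblasts, and 3635 and 1932 endothelial cells. The classes could overlap: 303 control and 167 sham cells met both the macrophage and the endothelial rule. The levels of the rule genes chose the members and are no finding. Just inside the thresholds lay 109 control and 56 sham cells with 20 to 25 C1q UMIs per 10000, against 320 and 182 just outside at 15 to 20. For the matrix genes 126 and 39 cells lay at 50 to 60 and 122 and 40 at 40 to 50. For Cdh5 and Pecam1, 636 and 199 cells had exactly 2 UMIs and 1003 and 569 had 1.

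Type I interferons such as interferon beta, the product of Ifnb1, are secreted by cells that sense foreign or misplaced nucleic acid or bacterial products. They bind a receptor present on nearly every cell, and the signal then switches on interferon-stimulated genes through a short DNA element, the ISRE. Many of those genes encode antiviral proteins, and others load peptides onto MHC class I molecules. The heart holds resident macrophages among its myocytes, vessels and fibroblasts, and macrophages, fibroblasts and endothelial cells can all secrete chemokines that draw in leukocytes.

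The kept cells had a median of 3063 UMIs in control and 5465.5 in sham, so the control library was shallower per cell although the libraries held 59465046 and 58028279 UMIs in all. The gap was present in each class: the medians were 3392 and 5830 UMIs in macrophages, 4460 and 7681 in fibroblasts, and 2782 and 4151 in endothelial cells. The control and sham libraries shared 48 cell barcodes. All 10 of 10 macrophage markers that the rule did not use, such as Csf1r and Adgre1, were detected in macrophages, at a summed 14900 CPM (counts scaled to 1000000 UMIs of the class) in control and 16000 in sham. The 10 fibroblast markers summed to 28300 and 29200 CPM in fibroblasts, and the 10 endothelial markers to 6390 and 6190 CPM in endothelial cells. Macrophages made up 32.7% of kept cells in control (95% exact binomial interval 32.0 to 33.5) and 41% in sham (40 to 42.1). Fibroblasts were 21.4% and 18.3%, endothelial cells 23.3% and 21.5%, and cells outside the classes 24.5% and 21.0%. With 1 library per group there was no test, and no interval here speaks to how animals vary, since each covers the error of counting alone.

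Markers of other cells differed between the libraries within the classes. In macrophages the 10 neutrophil markers summed to 469 CPM in control and 1280 in sham, and the T or NK cell markers to 140 and 243. The smooth muscle markers there summed to 378 and 54.7 CPM, and the red cell markers to 108 and 24.0. The endothelial markers in macrophages summed to 403 and 282 CPM, and the cardiomyocyte markers to 836 and 620. In endothelial cells the neutrophil markers summed to 110 and 682 CPM, the red cell markers to 1180 and 247, and the lymphatic endothelial markers to 692 and 289, with Ccl21a at 473 and 104. In fibroblasts the neutrophil markers were 63.4 and 49.9 CPM, with Ly6g at 0 in both libraries, and the macrophage markers were 382 and 284. The part of these cells, and of the depth per cell, in the differences described here was not tested except by the alternatives named beside a result.

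Most genes differed little between the hearts. The log2 ratio of sham to control had a median of 0.01 in macrophages, 0.04 in fibroblasts and 0.06 in endothelial cells, over genes with at least 50 counts in both libraries together. Of these, 51.6%, 57.3% and 59.7% were above 0, the shares to set beside the counts of list members given below. Of 12314 such genes in macrophages, 115 (0.934%) were at least 2-fold higher in sham and 192 (1.56%) at least 2-fold lower. Of 11977 in fibroblasts, 56 (0.468%) were higher and 76 (0.635%) lower. Of 12106 in endothelial cells, 96 (0.793%) were higher and 49 (0.405%) lower. With every cell thinned to 1000 UMIs, 52 macrophage genes were higher and 61 lower, and among endothelial cells with Cdh5 and no Ptprc, a rule added after seeing the data, 34 genes were higher.

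**Figure D1:**
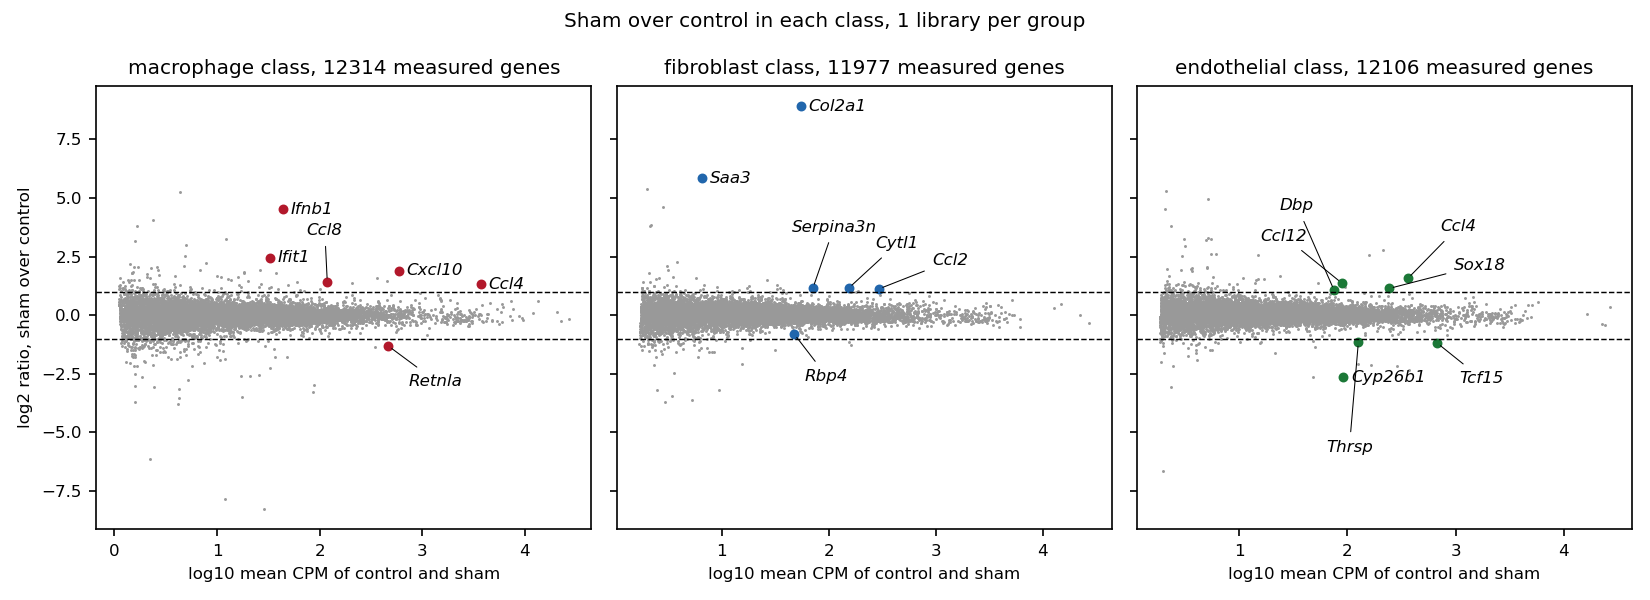
Each panel plots the genes with at least 50 counts in a class by the log10 of their mean CPM in control and sham (horizontal) and their log2 ratio of sham to control (vertical), with 1 library on each side and dashed lines at 2-fold. Most genes lie near 0, with medians of 0.01, 0.04 and 0.06, and Ifnb1 in macrophages stands at 4.52.

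In macrophages the gene furthest above control was Ifnb1, among the genes the naming rule allows. Ifnb1 (chromosome 4, 88522025 to 88522774, minus strand, GRCm38) stood at 3.68 CPM in the control heart and 84.8 CPM in the sham heart. The CLP and stimulated hearts, at 8.78 and 1.67 CPM, were also far below the sham heart, so the sham library stood alone. The log2 ratio of sham to control was 4.52 (95% interval 4.19 to 4.88), and it lay between 3.37 and 4.98 under every alternative processing tried.

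The Ifnb1 RNA lay in many macrophages, though unevenly. At least 1 Ifnb1 UMI was found in 30 of 5108 control macrophages (0.587%) and in 413 of 3679 sham macrophages (11.2%, 10.2 to 12.3). When every cell was thinned to 1000 UMIs, the shares were 7 of 4285 (0.163%) and 168 of 3345 (5.02%). The richest sham cell held 50 of the 2039 Ifnb1 UMIs of the class, and the richest 1% of sham macrophages held 39.6% of them. Ifnb1 was also looked for in other cells, where a count of 0 limits the share of cells with a UMI and not the share expressing the gene. It was found in 0 of 3341 control fibroblasts, which allows a share of up to 0.0898%, and in 8 of 1645 sham fibroblasts (0.486%) at a greater depth than the macrophages. Among endothelial cells that were not also macrophages, Ifnb1 was found in 0 of 3332 in control, which allows up to 0.09%, and in 5 of 1765 (0.283%) in sham. Among cells outside the classes it was found in 7 of 3817 in control (0.183%) and 23 of 1879 in sham (1.22%), with up to 20 UMIs in 1 sham cell.

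Sham macrophages with an Ifnb1 UMI were set beside the other sham macrophages, at a median depth of 6808 against 5695.5 UMIs. The whole interferon-response list summed to 7650 CPM in cells with Ifnb1 and 6290 in cells without, and some single genes, chosen after their values were seen, stood further apart. Cxcl10 was at 2160 CPM in the 413 cells with Ifnb1 and 724 in the 3266 without, Ifit1 at 219 and 27.7, and Isg15 at 727 and 225. Ccl4, a chemokine for monocytes and lymphocytes, was at 12700 and 4100 CPM, and the cytokine Tnf at 932 and 482. Levels lay close together for Il1b at 153 and 158 CPM, for the mannose receptor Mrc1 at 690 and 707, and for Ccr2, a receptor of recruited monocytes, at 48.1 and 43.9. The neutrophil gene S100a8 was at 821 and 491 CPM, and its part in these values was not tested. The cells come from 1 library, so these are descriptions of that library.

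Promoters are shown for Ifnb1, for 3 interferon-induced genes higher in sham macrophages, and for Creld2, an endoplasmic reticulum (ER) stress gene among the highest in fibroblasts. They were picked because each carries a known element of the interferon, NF-kappaB or ER stress response. They are RefSeq sequences of GRCm38.p6, written 5′ to 3′ on the gene's strand and taken from the 250 bases before the start of transcription. Capitals mark matches. The ISRE core was searched as GAAA, any 2 bases and GAAA, the NF-kappaB site as GGGA, any 2 bases and TTCC, and the ER stress element (ERSE) as CCAAT, any 9 bases and CCACG, each on both strands.
Ifnb1, chr4:88522871-88522970, minus strand: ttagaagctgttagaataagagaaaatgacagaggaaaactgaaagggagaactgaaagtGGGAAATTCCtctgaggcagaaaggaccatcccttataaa
Cxcl10, chr5:92349009-92349139, minus strand: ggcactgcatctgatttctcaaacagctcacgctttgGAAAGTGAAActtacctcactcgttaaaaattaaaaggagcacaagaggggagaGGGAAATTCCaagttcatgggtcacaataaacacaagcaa
Ifit1, chr19:34640725-34640843, plus strand: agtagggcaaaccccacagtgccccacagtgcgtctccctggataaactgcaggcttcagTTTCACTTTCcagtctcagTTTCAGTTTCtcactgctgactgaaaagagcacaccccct
Isg15, chr4:156200845-156200956, minus strand: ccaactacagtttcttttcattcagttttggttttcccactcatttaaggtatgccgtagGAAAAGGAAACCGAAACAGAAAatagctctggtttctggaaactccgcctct
Creld2, chr15:88819460-88819568, plus strand: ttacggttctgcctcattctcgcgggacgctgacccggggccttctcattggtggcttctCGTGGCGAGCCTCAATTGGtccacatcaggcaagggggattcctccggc
In Ifnb1 the capitals are an NF-kappaB site, 116 to 107 bases before the start. In Cxcl10 they are an ISRE core and, nearer the start, a separate NF-kappaB site. Ifit1 has 2 ISRE cores on the other strand, Isg15 has 3 that overlap each other, and Creld2 has an ERSE on the other strand. Across 32851 such windows of 27025 genes, the ISRE core was found in 2.98%, the NF-kappaB site in 1.21% and the ERSE in 0.113%. The ISRE core was found in 15 of 41 windows of interferon-response genes, or 14 of the 33 genes that had a window. The NF-kappaB site was found in 5 of 26 windows of 24 cytokine and chemokine genes (Csf1, Cxcl1, Cxcl10, Cxcl2 and Il6). It was also found in 4 of the 41 interferon-response windows, and the ISRE core in 3 of 18 MHC class I windows. A match describes the letters of the window and does not show that a factor bound there.

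Interferon-response genes were mostly higher in sham macrophages. Of 42 measured members of the list, 36 were higher, with a median log2 ratio of 0.28 against 0.01 over all genes, and 6 of the 42 were at least 2-fold higher against 0.934% of all genes. Ifit1, which binds viral RNA lacking a proper cap, was at 10.2 CPM in the control heart against 55.6 in the sham heart (log2 ratio 2.44, 2.23 to 2.67). Ifit2, a relative of Ifit1, was at 7.91 and 24.3 CPM (log2 ratio 1.62). Ifih1, a sensor of double-stranded RNA that acts before interferon is made, was at 32.6 and 86.9 CPM (1.41). The ubiquitin-like protein gene Isg15 was at 116 and 298 CPM (1.36), the antiviral enzyme gene Rsad2 at 28.4 and 69.6 (1.29), and Oasl1 at 25 and 53.8 (1.10). At the other end of the list, Irf9, a subunit of the factor that binds the ISRE, was at 62.7 and 57.2 CPM (-0.13), and Ifi44 at 2.74 and 2.49 (-0.13). A separate list of genes induced by interferon gamma, which holds Cxcl10, had 16 of 20 members higher and a larger median of 0.38.

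Several chemokines were also higher in sham macrophages. Of 28 measured cytokines and chemokines, 24 were higher in sham macrophages, with a median log2 ratio of 0.44, and 7 were at least 2-fold higher against 0.934% of all genes. Cxcl10, a chemokine for activated T cells and itself induced by interferon, was at 252 CPM in control, 933 in sham, 265 after CLP and 156 with stimulation. Only the sham value stood apart, with a log2 ratio to control of 1.89 (1.85 to 1.93). Cxcl10 was found in 29.6% of control and 58.1% of sham macrophages, or 16.0% and 39.2% at 1000 UMIs per cell. Ccl8 was at 64.7 and 173 CPM (1.41), and Ccl4 at 2160 and 5360 (1.31), with CLP and stimulation at 4600 and 4830. Unlike Cxcl10, Ccl4 was also well above control in both septic hearts. Il10, an anti-inflammatory cytokine, was at 9.40 and 23.2 CPM (1.3). Cxcl13, a B cell chemokine, was low in both hearts at 1.09 and 8.9 CPM (2.99) and reached 974 after CLP. The 1% of macrophages richest in Cxcl13 held 100% of its 22 control and 214 sham UMIs. Il1b was level at 156 and 157 CPM, and the neutrophil chemokine Cxcl2 was at 8920 and 8700.

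The MHC class I pathway was higher as a group: all 17 of 17 measured members were higher in sham macrophages, with a median log2 ratio of 0.31. B2m, the light chain of every class I molecule, was at 1120 and 1850 CPM (0.72, 0.70 to 0.75). H2-Q7 was at 46.4 and 94.8 CPM (1.03) and H2-T23 at 147 and 268 (0.87). The classical heavy chains stood nearer to control, H2-D1 at 1960 and 2410 CPM (0.30) and H2-K1 at 957 and 1040 (0.12). The H2 genes resemble each other closely, so reads may be split among them. MHC class II members were at a median of 0.05, with 8 of 11 higher.

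ER chaperones were higher in part. Sdf2l1, a luminal partner of the chaperone BiP, was at 64.8 and 139 CPM (1.10, 1.01 to 1.2) and Hyou1 at 8.16 and 15.8 (0.95), while Hspa5, which encodes BiP, was at 1680 and 1470 (-0.19). Of 17 measured members of the ER stress list 12 were higher, with a median of 0.24. The cytosolic heat shock list went the other way, with 13 of 17 members lower and a median of -0.24. Hspb1 was at 156 and 92.7 CPM (-0.75) and Dnaja1 at 692 and 447 (-0.63). Hspb1 was higher in cells outside the classes, at 1230 and 611 CPM, and the part of such cells was not tested.

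**Figure D2:**
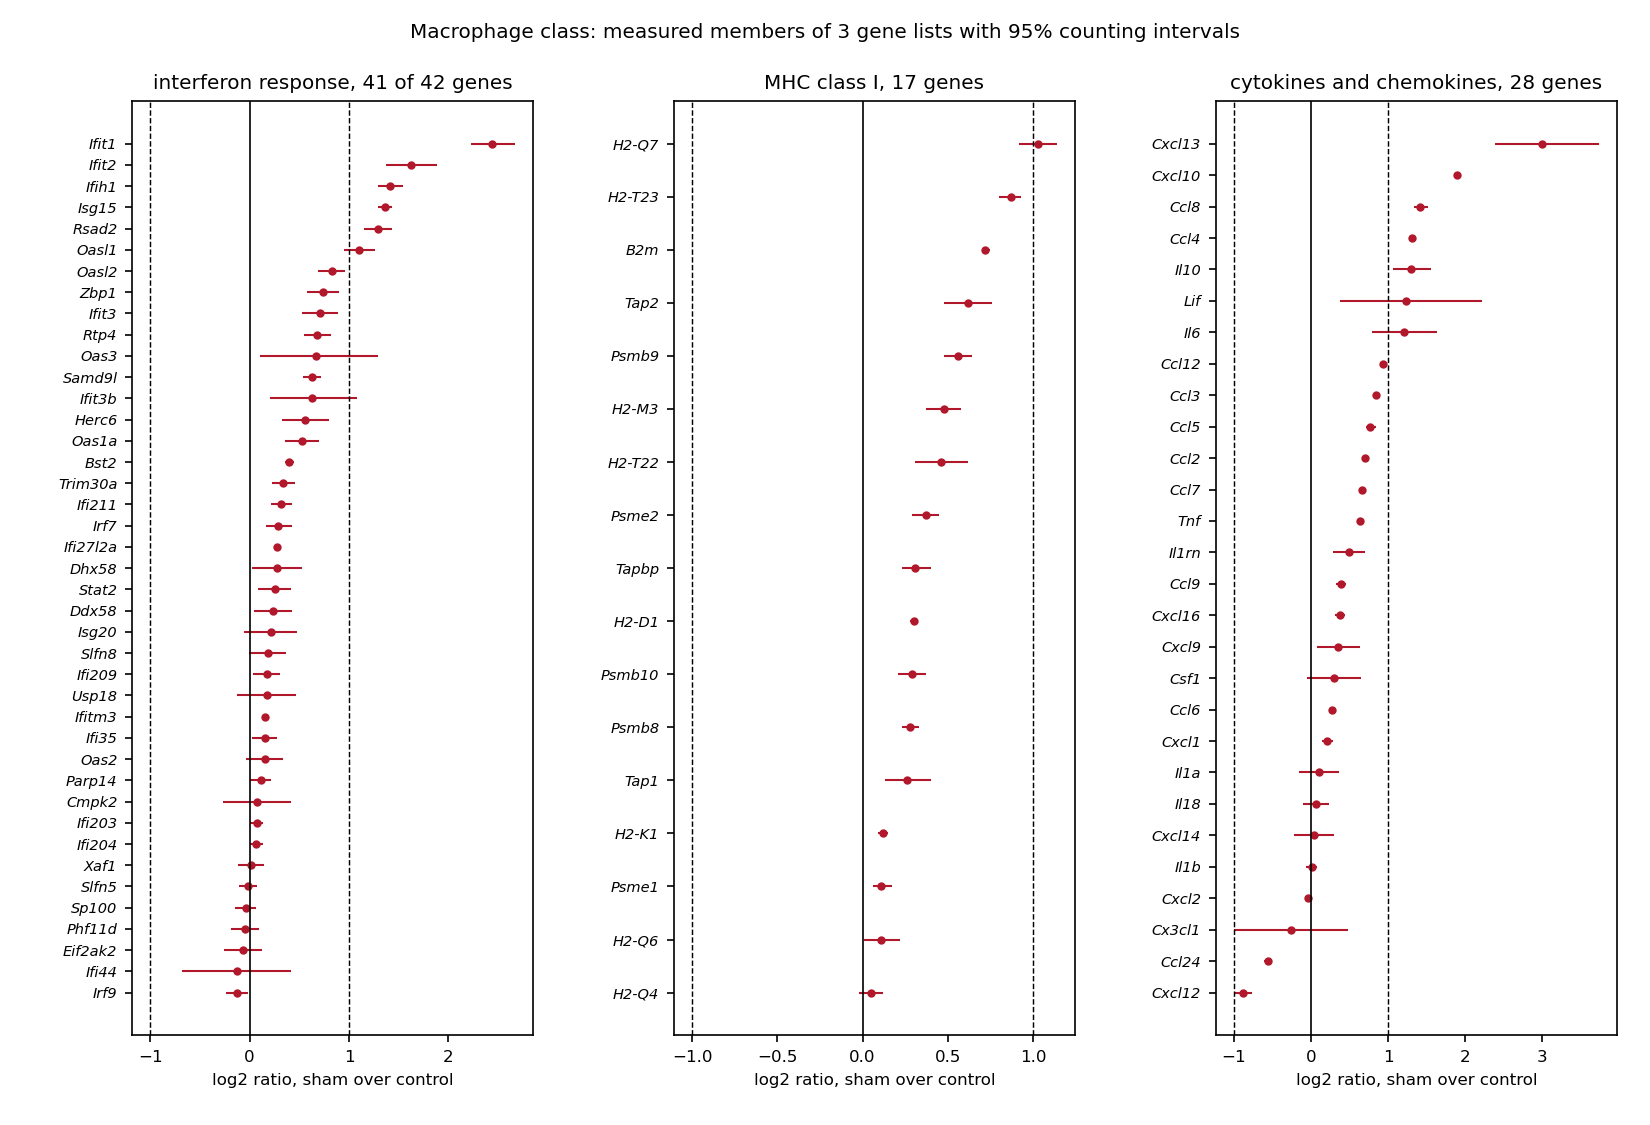
Log2 ratio of sham to control in macrophages for the measured members of the interferon response, MHC class I and cytokine lists, 1 point per gene with its 95% counting interval as a line and 1 interferon gene not drawn. The 17 MHC class I genes all lie above 0, and the interferon genes run from -0.13 for Ifi44 to 2.44 for Ifit1.

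Among the genes the naming rule allows, which passes over immunoglobulin genes, markers of other cells and genes under 50 CPM, the lowest in sham macrophages was Retnla. It encodes RELM-alpha, a secreted protein induced by interleukin 4. Retnla was at 670 CPM in control, 268 in sham, 49.0 after CLP and 142 with stimulation, so the control heart held the highest level. The log2 ratio of sham to control was -1.32 (-1.36 to -1.28). The RNA was concentrated: the richest 1% of macrophages held 61.3% of Retnla UMIs in control and 75.6% in sham. Kitl, the ligand of the receptor KIT, was at 85.2 and 47.9 CPM (-0.83), and Hbegf, a growth factor of the EGF family, at 124 and 77.6 (-0.67). Id3, an inhibitor of basic helix-loop-helix factors, was at 242 and 148 CPM (-0.71), and Lmna, which encodes lamins A and C of the nuclear envelope, at 680 and 420 (-0.70). Cells outside the classes held more Id3, at 1390 and 793 CPM, more Hbegf, at 289 and 165, and more Kitl, at 145 and 88.2. Endothelial cells held Hbegf at 181 and 108 CPM, and Kitl is on the list of capillary endothelial genes. Endothelial markers in macrophages summed to 403 and 282 CPM, and 303 control and 167 sham macrophages met both rules. The part of cells outside the classes and of endothelial cells was not tested. Baiap2 was at 129 and 77.0 CPM (-0.75), the transcription initiation factor gene Gtf2f1 at 83.5 and 50.2 (-0.73), and the lysozyme gene Lyz1 at 85.0 and 51.2 (-0.73). Tpm1, a muscle and non-muscle tropomyosin, was at 313 and 186 CPM (-0.75) but at -0.14 by the mean over cells. The list of M2 macrophage genes, which holds Retnla, had a median of -0.02, with 8 of 19 members higher. Its members ran from Arg1 at -1.34 to Chil3 at 1.56. Both were low, Arg1 at 2.14 and 0.832 CPM and Chil3 at 6.42 and 19.0. The richest 1% of macrophages held 100% of Arg1 UMIs in both libraries, and 100% and 98.0% of Chil3 UMIs. Chil3 was at -0.53 under the strict rule described below. The list of M1 macrophage genes, which holds Cxcl10, had a median of 0.27, with 17 of 19 members higher. Of these 19, 5 were at least 2-fold higher, against 0.934% of all genes. The lists of resident macrophage genes and of lysosomal genes had medians of 0.00 each, with 10 of 20 and 12 of 23 members higher. Monocyte-derived macrophage genes had a median of 0.34, with 13 of 18 higher, beside monocyte markers of 118 CPM in control and 198 in sham. That median was -0.11 under a strict rule that bars any UMI of markers of other cells, which left 2216 control and 939 sham macrophages.

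In sham fibroblasts the acute phase gene Serpina3n, the chemokine Ccl2 and Il6 were about 2-fold higher. Of 16 measured acute phase genes 13 were higher, with a median of 0.31, against 57.3% of all fibroblast genes, and the lowest, Chil1, was at 9.28 and 3.44 CPM (-1.42). Serpina3n, a secreted protease inhibitor of the acute phase, was at 44.0 CPM in control and 98.4 in sham, with 3570 after CLP and 3130 with stimulation. The sham level was thus far nearer to control than to either septic heart, at a log2 ratio of 1.16 (1.03 to 1.3). Ccl2, the main chemokine for monocytes, was at 185, 403, 249 and 578 CPM in the order control, sham, CLP and stimulated. Its log2 ratio of sham to control was 1.12 (1.05 to 1.19). Il6 followed the same order of libraries, at 109, 217, 169 and 309 CPM (0.99, 0.91 to 1.08). Of 26 measured cytokines and chemokines 16 were higher in sham and 10 lower, with a median of 0.17, a share close to the 57.3% of all genes. Cxcl1, a neutrophil chemokine, was at 751 and 1120 CPM (0.58), and Ccl11, an eosinophil chemokine, at 29.5 and 18.2 (-0.69).

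Tcf21, Ccn1 and Myadm were among the highest genes of the class, while the activated and adventitial fibroblast lists were at medians of 0.04 and 0.03. Tcf21, a transcription factor that marks cardiac fibroblasts and their epicardial precursors, was at 124 CPM in control, 252 in sham, 131 after CLP and 291 with stimulation. The control and CLP libraries were low and the others high, with a log2 ratio of sham to control of 1.03 (0.95 to 1.11). Ccn1, a matrix protein induced by growth factors and stretch, was at 591 and 1160 CPM (0.98), and the membrane protein gene Myadm at 120 and 237 (0.98). Of 40 measured extracellular matrix genes 32 were higher, by small ratios: the median was 0.13 and 0 of the 40 were 2-fold higher. Under the strict rule, which left only 37 sham fibroblasts, the median was -0.15. Tnc stood at 5.26 and 7.11 CPM (0.43) and Mmp2, which cleaves collagen, at 563 and 752 (0.42), while Timp1, an inhibitor of such enzymes, was at 175 and 153 (-0.19).

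The MHC class I and ER stress groups were higher in fibroblasts as well. H2-T23 was at 46.6 and 98.5 CPM (1.08, 0.95 to 1.21) and B2m at 492 and 777 (0.66), and 14 of 17 class I members were higher with a median of 0.28. Of 37 measured interferon-response genes 34 were higher, with a median of 0.20. Rsad2 led at 5.52 and 12.6 CPM (1.19) and Cxcl10 stood at 73.0 and 129 (0.82). The list of genes induced by interferon gamma had 14 of 15 members higher and a median of 0.42. Of 17 ER stress genes 15 were higher, with a median of 0.24, led by Sdf2l1 at 20.6 and 44.6 CPM (1.11) and by Creld2, an ER chaperone whose ERSE is shown above, at 27.4 and 52.9 (0.95). MHC class II genes were lower, 7 of 7 with a median of -0.74. Cd74, the invariant chain of class II, was at 213 and 95.5 CPM (-1.16), beside macrophage markers of 382 and 284 CPM in the same cells. The class II median was -0.03 at 1000 UMIs per cell, -0.06 without the highest doublet scores and 0.30 under the strict rule.

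Other genes were lower in sham fibroblasts. Angptl4, an inhibitor of lipoprotein lipase, was at 46.3 and 16.7 CPM (-1.47, -1.70 to -1.25), with a ratio of 0.33 under the strict rule. Rbp4, the carrier of retinol in blood, was at 60.7 and 34.6 CPM (-0.81), and Dhrs3, which reduces retinaldehyde to retinol, at 65.9 and 41.1 (-0.68). The complement gene C7 was at 72.7 and 46.4 CPM (-0.65), and Id1 at 130 and 84.9 (-0.62). Nop14 at 70.5 and 42.0 CPM (-0.75) and Nop58 at 347 and 232 (-0.58), both of ribosome assembly, were lower too. The smooth muscle light chain gene Myl9 was at 180 and 119 CPM (-0.59), beside smooth muscle markers of 1420 and 1220 CPM.

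The largest ratio in fibroblasts belonged to 1 cell. Col2a1, the collagen of cartilage, was at 0.195 CPM in control and 110 in sham, but 1434 of its 1442 sham UMIs were in a single cell of 25187 UMIs. The same cell held 45 of the 83 sham UMIs of Acan, 63 of 72 of Snorc, 80 of 112 of Cnmd and 1025 of 2789 of Cytl1, all genes of cartilage. The 1% of cells richest in Col2a1 held 100% of its UMIs in both libraries, so no ratio can be given without them. Without the 1% of cells richest in Cytl1, a setting added after seeing the data, its log2 ratio was 0.02. Saa3, an acute phase protein, had 150 of its 170 sham UMIs in another single cell and stood at 0.195 and 13 CPM, against 4630 after CLP and 6750 with stimulation.

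In endothelial cells the gene furthest below control among those the naming rule allows was Cyp26b1, and Tcf15, Thrsp and Angptl4 were lower too. Cyp26b1, which breaks down retinoic acid (chromosome 6, 84571414 to 84593908, minus strand, GRCm38), was at 158 CPM in control, 25.3 in sham, 56.2 after CLP and 5.0 with stimulation. The control heart was the highest of the 4. The log2 ratio of sham to control was -2.64 (-2.82 to -2.48), and it lay between -4.26 and -2.43 under all alternatives. Cyp26b1 was found in 29.7% of control and 11.9% of sham endothelial cells, or 13.6% and 2.81% at 1000 UMIs per cell, although sham cells were deeper. Tcf15, a transcription factor of heart capillary endothelium that drives fatty acid uptake, was at 940, 411, 560 and 107 CPM, again highest in control. Its log2 ratio of sham to control was -1.19 (-1.24 to -1.15), and the share of cells with a UMI was 56.8% and 35.0% at 1000 UMIs per cell. Thrsp, a gene of lipid synthesis, was at 174, 78.7, 464 and 17.6 CPM (-1.15), and Angptl4 at 66.1, 30.7, 118 and 21.7 (-1.11). Both were highest after CLP, which sets them apart from Cyp26b1 and Tcf15.

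Sox18 differed in the other direction. This transcription factor of vessel and lymphatic development was at 152 CPM in control, 335 in sham, 269 after CLP and 45.7 with stimulation. The sham level was the highest, with a log2 ratio to control of 1.14 (1.06 to 1.21) and values of 1.07 to 1.2 under all alternatives. A Sox18 UMI was present in 37.3% of control and 66.9% of sham endothelial cells. Cxcr4, the receptor of Cxcl12, was at 30.5 and 59.6 CPM (0.96), while Cxcl12 itself was at 1720 and 1230 (-0.48). Nos3, the endothelial nitric oxide synthase, was at 71.0 and 102 CPM (0.52), and Edn1, the vasoconstrictor endothelin, at 76.1 and 40.7 (-0.90). Igfbp5 was at 255 and 483 CPM (0.92) but at -0.72 in the 482 control and 95 sham cells left by the strict rule. Capillary genes as a list were at a median of 0.00, with 9 of 17 higher. Tcf15 was its lowest member, and Lpl, the lipase that frees fatty acids for uptake, was at 312 and 410 CPM (0.39). Of 14 arterial genes 12 were lower, with a median of -0.16, led by the retinol-binding protein gene Rbp7 at 539 and 332 CPM (-0.70).

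Clock output genes were higher and immediate early genes lower in sham endothelial cells. Dbp, a transcription factor driven directly by the circadian clock, was at 48.8 CPM in control, 102 in sham, 9.66 after CLP and 3.79 with stimulation, so both septic hearts were far below both others. The log2 ratio of sham to control was 1.06 (0.92 to 1.19). Its relative Tef was at 26.4 and 46.6 CPM (0.82), and 13 of 17 clock genes were higher with a median of 0.36. Arntl, which peaks opposite to Dbp in the daily cycle, was at 11.4 and 9.17 (-0.31). Of the 17 clock genes, 0 had a counting interval wholly below 0. The clock medians were 0.21 in macrophages and 0.19 in fibroblasts. In macrophages Dbp was at 0.62 (0.45 to 0.80) and Arntl at -0.52 (-0.78 to -0.26). The sources used here do not give the time of day at which each heart was taken. Of 29 immediate early genes 23 were lower, with a median of -0.26, among them Atf3 at 1080 and 599 CPM (-0.85) and Gadd45b at 629 and 394 (-0.67). The other classes differed: 20 of 29 were higher in fibroblasts, with a median of 0.18, and 17 of 29 in macrophages, with a median of 0.03. In endothelial cells the heat shock list also stood below control. Heat shock chaperones were lower in 14 of 17, with Dnajb1 at 329 and 184 CPM (-0.84).

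Of 23 measured cytokines and chemokines 19 were higher in sham endothelial cells, with a median of 0.25, but the median was -0.12 under the strict rule. The neutrophil markers given above and the monocyte markers, at 18.1 and 52.1 CPM, were higher in these cells too, and their part was not tested. Of the endothelial cells, 303 in control and 167 in sham also met the macrophage rule. In macrophages Ccl4 was at 2160 and 5360 CPM and Cxcl10 at 252 and 933. The part of the cells in both classes was not tested beyond the strict rule. In endothelial cells Ccl24 was at 33.4 and 20.3 CPM (-0.72). Ccl4 was at 183 and 542 CPM (1.57), with over 50% of its UMIs in the richest 1% of cells in each library (53.6% and 53.1%), and its ratio was 0.81 under the strict rule. Ccl12 was at 49.6 and 128 CPM (1.37), Cxcl10 at 58.4 and 133 (1.19) and Ccl3 at 97.7 and 189 (0.95, or 0.10 strict). At 1000 UMIs per cell Cxcl10 was at 0.34 and the histone gene Hist1h2ap, 1.38 at 29.5 and 76.9 CPM, was at -0.27. MHC class I genes were higher in 15 of 17, with a median of 0.40, led by H2-Q7 at 47.7 and 89.9 CPM (0.91) and by H2-T23 at 141 and 250 (0.82). Interferon-response genes were higher in 39 of 41, with a median of 0.19. The genes induced by interferon gamma were higher in 17 of 19, with a median of 0.45.

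**Figure D3:**
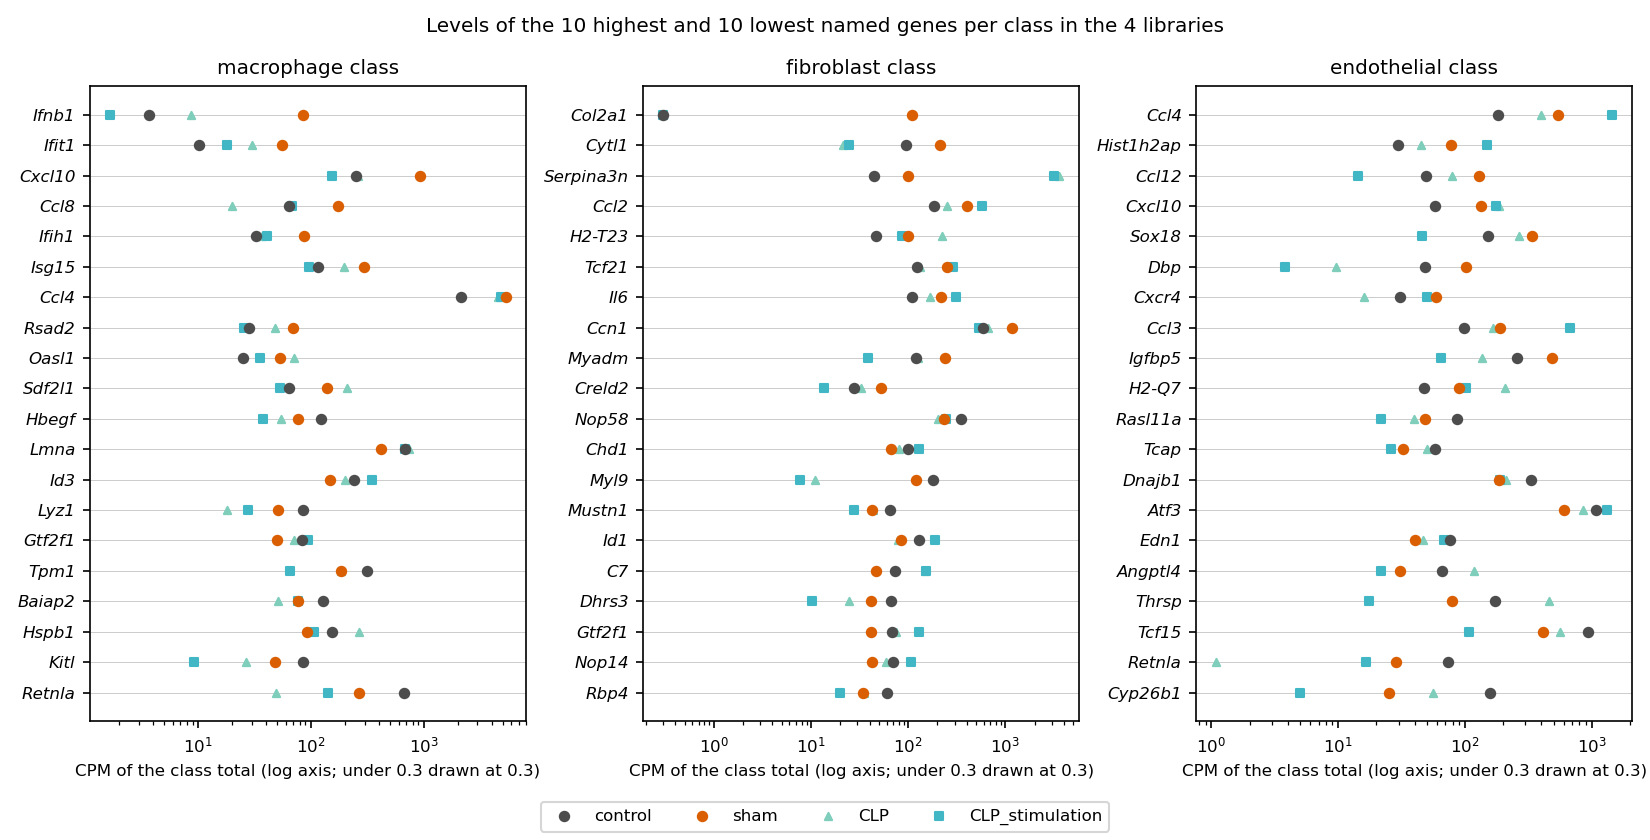
Levels (CPM of the class total, log axis, values under 0.3 drawn at 0.3) of the 10 highest and 10 lowest named genes of each class, with 1 point for each of the control, sham, CLP and CLP with stimulation libraries. Ifnb1 in macrophages is at 84.8 CPM in sham and at most 8.78 in the other libraries, and Cyp26b1 in endothelial cells is highest in control at 158.

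A few genes stood on the same side of control in all 3 classes. The naming rule took the genes with the highest smallest ratio, out of 1671 that reached 50 CPM in every class. H2-T23, a nonclassical class I molecule, had log2 ratios of 0.87 in macrophages, 1.08 in fibroblasts and 0.82 in endothelial cells, and B2m had 0.72, 0.66 and 0.73. Myadm had 0.72, 0.98 and 0.82, and Ccl2 had 0.70, 1.12 and 0.82. Cxcl10 had 1.89, 0.82 and 1.19, with its largest ratio in macrophages. On the lower side, Nop58 had -0.53, -0.58 and -0.56, the cold-inducible RNA-binding protein gene Cirbp -0.60, -0.47 and -0.58, and Hbegf -0.67, -0.48 and -0.75. The stress genes Gadd45b (-0.54, -0.46 and -0.67) and Gadd45g (-0.48, -0.45 and -0.62) completed the set. The classes share each library and its free RNA, so a gene seen in all 3 is not 3 separate observations.

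RNA of the mitochondrial genome was also higher in every class. Of 13 mitochondrially encoded protein genes 12 were higher in each, with medians of 0.42, 0.48 and 0.44. The mitochondrial share of UMIs per cell had medians of 2.95% and 4.04% in macrophages, 2.04% and 2.76% in fibroblasts, and 2.43% and 3.25% in endothelial cells. Nuclear genes of oxidative phosphorylation had medians near 0 or below: 26 of 41 were higher in macrophages, with a median of 0.02, 9 of 41 in fibroblasts, with a median of -0.10, and 9 of 41 in endothelial cells, with a median of -0.12. Whether cell handling or RNA quality had a part in this was not tested.

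**Figure D4:**
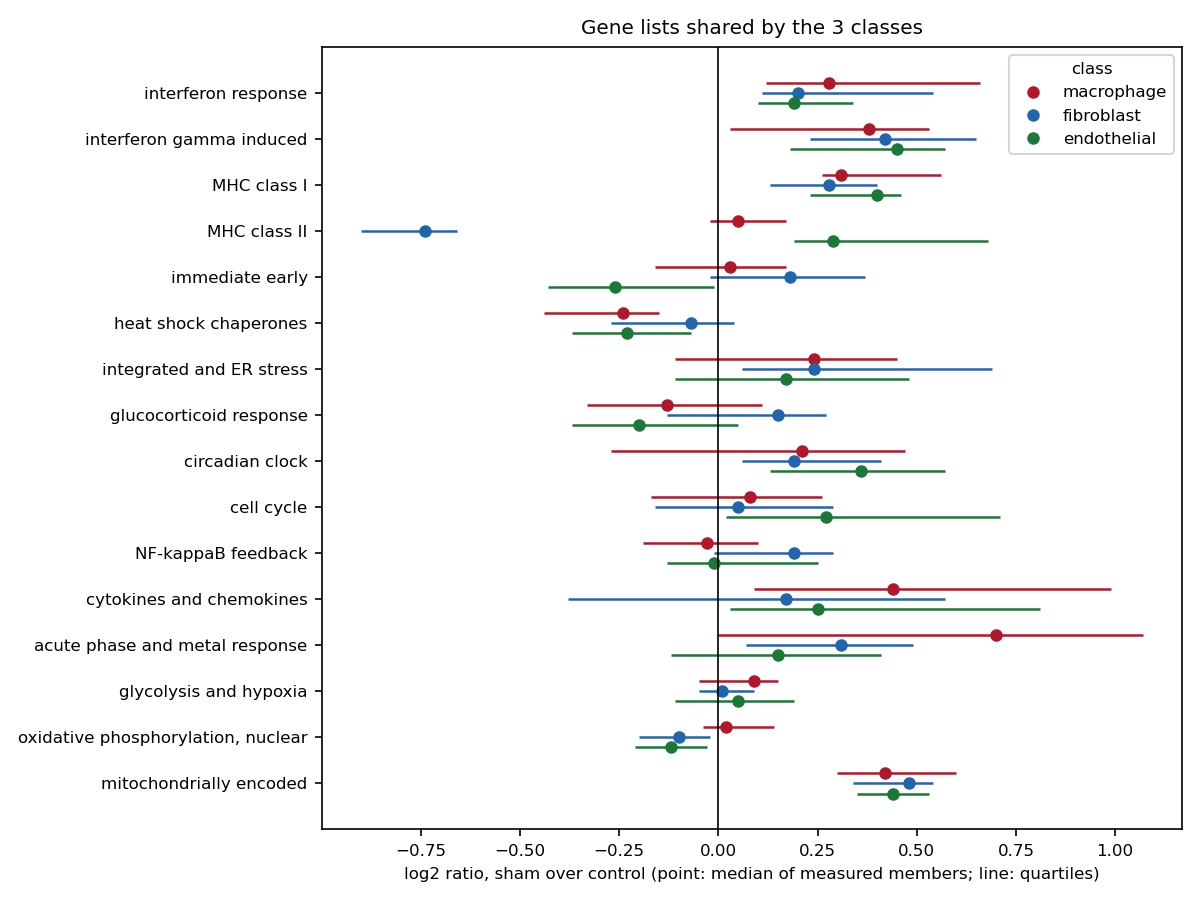
Median log2 ratio of sham to control (points) and quartiles over members (lines) of the gene lists measured in macrophages, fibroblasts and endothelial cells, 1 library per side. MHC class I lies above 0 in each class at 0.31, 0.28 and 0.40, while MHC class II lies at 0.05, -0.74 and 0.29.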

How the data were processed

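The authors deposited 1 matrix of unnormalized UMI counts for each library, with 32285 genes as rows and barcodes as columns. Per the file headers, the software was Cell Ranger 5.0.0. The submitters' processing notes name STAR and mm10, and the labels name the Chromium 3' v3 kit. Counts are of 3' ends, so levels are not compared between genes. Free RNA was not subtracted and doublets were not removed from the values reported.

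Cells with at least 500 UMIs, 200 genes and at most 20% mitochondrial UMIs were kept: 15598 of 15964 in control and 8968 of 9538 in sham. Counts were summed per class and library and scaled to the class total (CPM). Log2 ratios used a prior count of 0.5. CPM values have exact Poisson intervals, ratios exact conditional binomial intervals and shares exact (Clopper-Pearson) intervals, all at 95%. A count of 0 was read as allowing up to 3 counts. A gene was measured with at least 50 counts over both libraries. No test across libraries was possible with 1 library per group. The ratios were tested on simulated data with known folds.

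The members, gene lists and rules were chosen with earlier results of these data known. Genes were named as the 10 highest and 10 lowest ratios of each class at 50 CPM or more, the 5 most apart on each side over all 3 classes, and the 2 outermost members of each list. Mitochondrial, ribosomal, haemoglobin, immunoglobulin and sex-linked genes, unnamed models, rule genes, markers of other cells and genes over 10 times as high in other cells were passed over. Other list members printed were chosen after their values were seen. Coordinates are from GENCODE vM21, in which 222 of 222 named genes had an entry, and promoter sequences from RefSeq. Of the lists, Mx1, Mx2, Cxcl11 and Serpina3h had no count row. 1 list member is counted in its list and not reported here by name. Alternatives changed the scaling, the filter on counts, the added count, the weight and depth of cells, the filters on cells, the class rules and doublets (Scrublet in scanpy 1.11.5). Python 3.11.15, numpy 2.4.6, scipy 1.17.1 and pandas 2.3.3 were used.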

Additional observations from a re-analysis of the deposited data

Results flagged for a closer look

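MHC class II genes lay on opposite sides of control in the vessel and matrix cells. Their median log2 ratio of sham to control was 0.29 in endothelial cells, with 10 of 11 measured members higher, and -0.74 in fibroblasts, with 0 of 7 higher. The difference was not tested, since each class has 1 library per group. Macrophage markers summed to 1490 and 1520 CPM in control and sham endothelial cells and to 382 and 284 CPM in fibroblasts, and their part was not tested. The opposition was lost under other settings. At 1000 UMIs per cell the medians were -0.33 in endothelial cells and -0.03 in fibroblasts, and under the strict rule they were 0.07 and 0.30. The median was -0.45 in endothelial cells with Cdh5 and without Ptprc.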

How the results depend on the processing

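No paired analysis was possible because each group is 1 library and no result comes from a test. For the same reason no replicate could be left out. The depth of 1 library per group limits every value to counting precision. Numbers in threes below are for macrophages, fibroblasts and endothelial cells. At a 1.5-fold threshold 495, 385 and 485 genes were higher and 591, 329 and 254 lower, and at 4-fold 15, 8 and 18 were higher and 26, 8 and 10 lower. With 5 CPM added, 29, 10 and 19 were higher and 25, 8 and 10 lower at 2-fold. Measured at 20 counts they were 204, 139 and 213 higher and 395, 189 and 128 lower, and with no filter 1842, 1557 and 1854 higher and 2224, 2023 and 1901 lower. Thinned to 1000 UMIs per cell, 52 macrophage and 44 endothelial genes were higher, and 61 macrophage and 46 fibroblast genes lower. The strict rule, which leaves 37 sham fibroblasts and 95 sham endothelial cells, gave 65, 113 and 38 higher and 57, 203 and 75 lower. The mean over cells gave 123 lower in fibroblasts and 91 in endothelial cells, Scrublet 91 lower in macrophages, and endothelial cells with Cdh5 and no Ptprc, a rule added after seeing the data, 34 higher.

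Control shares of kept cells at 1000 or more UMIs were 23.8% for fibroblasts and 25.7% for endothelial cells, and sham shares 19.7% and 22.9%. Thinned, macrophages were 33.9% and 42.8% in control and sham, fibroblasts 26.2% and 22.2%, and endothelial cells 15.2% and 14.2%. With at most 10% mitochondrial UMIs, control macrophages were 31.5%, fibroblasts 22.4% and 19.5%, and endothelial cells 24.4% and 22.8%. Without Scrublet's highest scores control fibroblasts were 22.5%.

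MHC class I medians moved to 0.31 in endothelial cells by the mean over cells and to 0.68 in fibroblasts under the strict rule. The MHC class II median of endothelial cells was -0.45 with Cdh5 and no Ptprc, -0.33 thinned, 0.07 strict and 0.88 after Scrublet. That of fibroblasts was -0.06 after Scrublet, -0.03 thinned, -0.56 by the mean over cells and 0.30 strict. Macrophage cytokines moved to 0.60 after Scrublet, 0.56 thinned and 0.62 in macrophages outside the endothelial rule, which was added after seeing the data. Endothelial cytokines were at -0.12 strict. The macrophage ER stress median was 0.14 thinned and 0.05 strict, monocyte-derived genes -0.11 strict, fibroblast matrix genes -0.15 strict and endothelial cell cycle genes -0.05 thinned. Endothelial immediate early genes were at -0.31 under TMM scaling and with Cdh5 and no Ptprc, -0.32 by median of ratios, -0.33 by the mean over cells, -0.37 thinned and -0.69 strict.

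Some genes changed sign. Under the strict rule macrophage Chil3 was at -0.53, Hp at -0.37, Lcn2 at -0.50 and Saa3 at -2.21. Fibroblast Angptl4 was at 0.33, Cd74 at 0.30, Cytl1 at -1.29 and Il1b at 0.38, and endothelial Ccnb1 at -0.49, Cenpf at -1.87, Hapln1 at -0.05, Hist1h2ap at -1.83 and Npr3 at 1.83. Thinned, fibroblast Cxcl9 was at -0.42, and endothelial Hist1h2ap at -0.27, Hp at -2.01 and Npr3 at 0.42. After Scrublet macrophage Lcn2 was at -0.11 and Saa3 at -0.59, and fibroblast Il1b at 0.12, while macrophage Saa3 was at -0.57 by the mean over cells. Without the 1% of cells richest in it, a setting added after seeing the data, fibroblast Il1b was at 3.94. Those cells held 100% of its 63 control UMIs and 76.9% of its 26 sham UMIs, so that value rests on no control UMI. Of 57 named genes at a log2 ratio of at least 1 in size, 42 kept their sign under every setting run and 50 under all but the strict rule. Of 64 list medians 38 and 43 did. For all these changes the cause was not tested.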

Other observations

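Cells outside the classes differed in their makeup. Their summed neutrophil markers were at 3060 CPM in control and 12400 in sham, the monocyte markers at 223 and 731, and the markers of T or NK cells at 253 and 920, while the endothelial markers were at 1540 and 920. Immunoglobulin A RNA was present in the control macrophages and nearly absent from the sham ones: Igha was at 57.8 and 0.166 CPM and the joining chain gene Jchain at 23.6 and 0.0832. In endothelial cells the lymphatic chemokine Ccl21a was at 473 CPM in control and 104 in sham, and the lymphatic markers as a list at 692 and 289.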
